A study of Mus musculus with 8 samples.

Results

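Transgressive expression, in which an inbred line derived from a cross lies below or above both of its parents, was examined in 4 recombinant inbred lines (LGXSM-33, LGXSM-35, LGXSM-5 and LGXSM-6) against LG/J and SM/J, the strains they were bred from. These 6 strains are 6 of the 8 samples of the series, and each of the 67 target mRNAs was placed in each of the 4 lines, giving 268 line-mRNA pairs. For each pair, the mean over the normalized assay replicates of the line was set against the interval between the means of the parents. Every sample was a homogenate of formalin-fixed, paraffin-embedded knee joint sections from mice whose articular cartilage had been injured through its full thickness at 8 weeks of age. The joints were harvested months after that surgery, so the mice were older than 8 weeks by then. The parents carry the injury too, and no uninjured joint was compared. The labels call LG/J and LGXSM-6 healers, LGXSM-5 and LGXSM-35 intermediate healers, and SM/J and LGXSM-33 nonhealers. The strains C57BL6/J, labelled a nonhealer, and MRL/MpJ, labelled a healer, are not part of the cross. They were placed as a reading of how often any strain lies outside the parental interval. Both also entered the fits over all 8 strains, and so the pooled variance behind the *P* values.

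A recombinant inbred line carries at most loci the allele of one parent or the other in fixed form, in a combination that neither parent carries. A line can pass both parents when the parents hold alleles of opposite effect at different loci, since the line may collect alleles of like effect, or when alleles at different loci interact. The mRNAs of the panels belong to the tissues of an injured joint: matrix and growth plate genes of cartilage and bone, matrix proteases, growth factor, Wnt and cytokine genes, adipokines, autophagy genes and genes of DNA repair. Each was read in the QuantiGene Plex assay, in which probes on coded beads capture an mRNA from the homogenate and bound branched DNA gives a signal in arbitrary units.

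The numbered signals of a strain did not behave as independent measurements. They came in runs of 3 consecutive numbers with small steps inside a run and larger steps between runs, and a strain had 3 runs, or 4 in LGXSM-6 and LGXSM-33. In the 8 signals of LG/J and SM/J in the first panel the runs held 2, 3 and 3 signals. The median over the mRNAs of the share of within-strain variance that lay between runs was 79.07%, and it was over 50% for 57 of the 67 mRNAs. The paper used 3 to 4 mice per strain and speaks of 3 replicates of a measure, numbers that the runs match. The files do not say whether a run is a mouse, and each strain is 1 sample in the labels. If runs are mice, only the fits over run means count animals. A count of assay replicates overstates the number of independent measurements, and *P* values over them are too small where signals of a run share a source. Each call is therefore given over assay replicates and again over run means. Placements, gene lists and the *P* values of pairs that were not calls are over assay replicates. LGXSM-6 and LGXSM-33 had 12 assay replicates in each panel, LGXSM-5 and LGXSM-35 had 9, and the parents had 8 in the first panel and 9 in the second.

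One run of SM/J stood apart. Its *Hprt1* signal, a reference gene, was 13 to 15 in the first panel against 66.5 to 99 in the other SM/J signals, and 10 to 22 against 64 to 81 in the second panel. The median target signal of that run was lower as well, 30 against 106.5 in the first panel and 10.5 against 25.25 in the second. The cause was not tested. SM/J also had the lowest median target signals of the 6 strains, 54.5 in the first panel and 18 in the second, and LGXSM-6 the highest, 292 and 51.8. A fault was found in the normalized file of the first panel. There 31 of the 33 values of LGXSM-35 Signal 9 equalled (within 1e-04) the value recomputed for the mRNA 2 rows further down. The recomputed values were used in their place. With that column as deposited, 4 of the 33 placements of LGXSM-35 changed and 1 of the calls below was lost, *Stat3* in LGXSM-6 (adjusted *P* = 0.0829 as deposited and 0.0430 as recomputed). Defining markers of the labelled tissue gave signal in all 6 strains, with strain medians of 1181 to 9544 units for *Col2a1*, a cartilage collagen, and 1376 to 4707 for *Bglap1*, a bone matrix gene. Adipocyte markers read lower, with strain medians of 17 to 57 units for *Adipoq*, the adiponectin gene, and 9.5 to 13.5 for *Lep*, the hormone leptin. No background value was available to set these readings against.

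**Figure D1:**
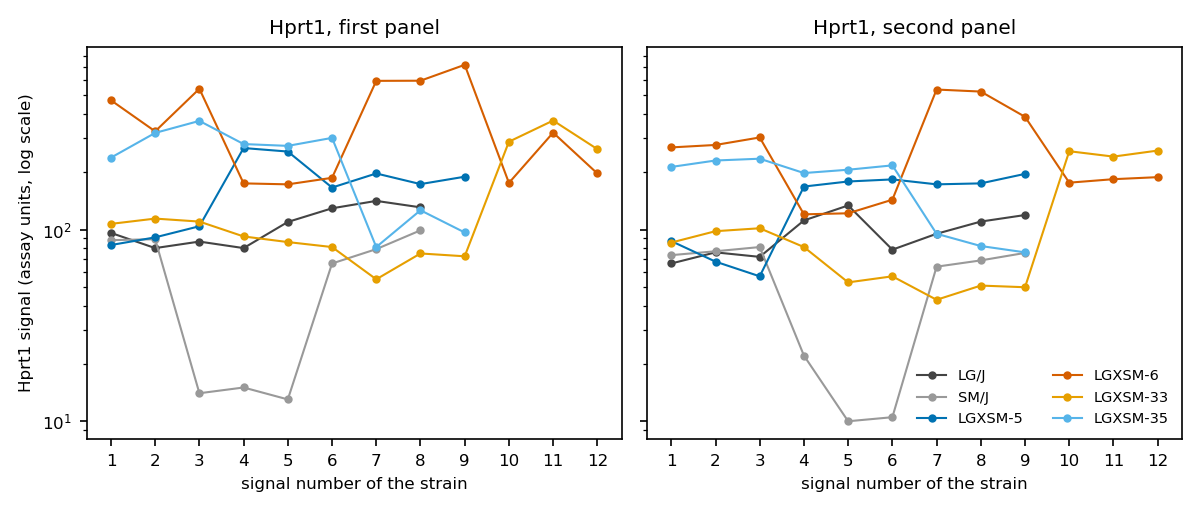
*Hprt1* signal (assay units, log axis) by the signal number of each of the 6 strains of the cross, in the first panel (left) and the second (right). Points of 1 strain are joined; the 3 low SM/J signals lie at 13 to 15 in the first panel and 10 to 22 in the second, and the strains step from run to run.

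Of the 268 line means, 186 (69.4%) lay outside the parental interval, 114 above it (42.5%) and 72 below it (26.9%), and 82 lay between the parents (30.6%). By line the share outside was 73.1% in LGXSM-5, 71.6% in LGXSM-33, 68.7% in LGXSM-6 and 64.2% in LGXSM-35. The share over the 4 lines is close to the 66.7% at which 1 of 3 values drawn from a single source is the highest or the lowest, so being outside the interval is by itself no result about a line. The strains outside the cross gave 62.7% for C57BL6/J, with 21 mRNAs above (31.3%) and 21 below (31.3%), and 55.2% for MRL/MpJ, with 22 above (32.8%) and 15 below (22.4%). The parental interval was narrow, with a median width of 0.0675 log10 units or 1.17-fold.

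The lines differed in which side they took. LGXSM-6 and LGXSM-33 each lay above both parents for 37 mRNAs (55.2%) and below them for 9 (13.4%) and 11 (16.4%). LGXSM-5 and LGXSM-35 lay above for 21 (31.3%) and 19 (28.4%), and below for 28 (41.8%) and 24 (35.8%). Between the parents lay 18 mRNAs in LGXSM-5 (26.9%), 21 in LGXSM-6 (31.3%), 19 in LGXSM-33 (28.4%) and 24 in LGXSM-35 (35.8%). Among the 6 strains, LGXSM-6 and LGXSM-33 each held the highest mean for 19 mRNAs, LG/J for 15 and SM/J for 2. These placements share the parents, and the sides depended on the scale: with the ratio of each target to its reference genes in place of the regression, 24 means lay above and 159 below, and without any normalization 213 lay above and 3 below.

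**Figure D2:**
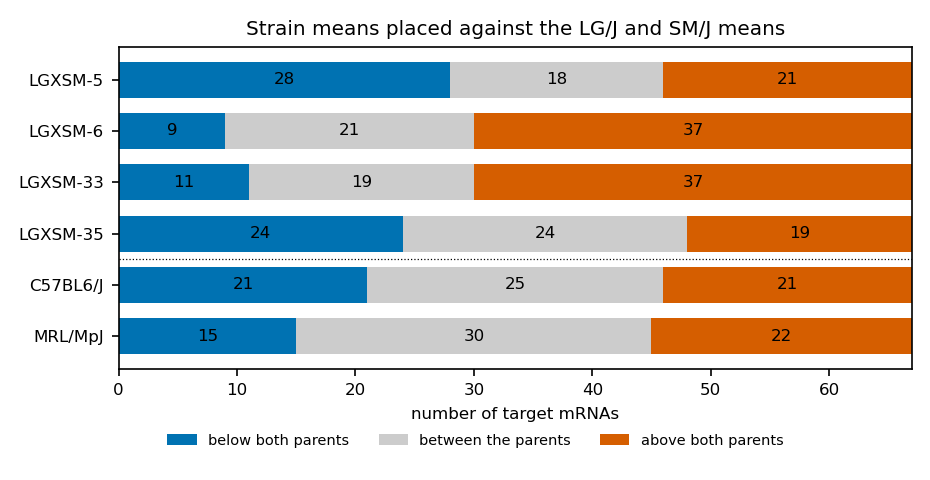
Number of the 67 target mRNAs (x axis) whose strain mean lay below, between or above the LG/J and SM/J means, for the 4 recombinant lines and, under the dotted line, the 2 strains outside the cross. LGXSM-6 and LGXSM-33 have 37 mRNAs above the parents each, and LGXSM-5 has the most below, 28.

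A pair was called transgressive when the line lay on the same side of both parents and the larger of its limma *P* values against them, adjusted over all 268 pairs, was under 0.05. Over assay replicates 31 pairs passed (11.6%), 18 above the parents (6.72%) and 13 below (4.85%), in 19 mRNAs. LGXSM-5 had 9 calls (13.4%), 3 above (4.48%) and 6 below (8.96%). LGXSM-33 had 9 as well (13.4%), 8 above (11.9%) and 1 below (1.49%). LGXSM-35 had 8 (11.9%), 2 above (2.99%) and 6 below (8.96%), and LGXSM-6 had 5 (7.46%), all above (7.46%). The called means lay 1.18-fold to 2.69-fold beyond the nearer parent, with a median of 1.41-fold. Over run means no pair passed: limma gave 0 calls, a smallest adjusted *P* of 0.0621, and 17 pairs with an unadjusted *P* under 0.05, of which 16 were among the 31. All 31 pairs lay on the same side of the parents over runs, and in 17 of them no run mean of the line overlapped a run mean of either parent, which held for 21 of the 268 pairs (7.84%). No assay replicate overlapped either parent in 4 pairs (1.49%): *Bglap1*, *Becn1* and *Mmp13* in LGXSM-35 and *Atg7* in LGXSM-5, *Mmp13* being no call and named after its values were seen.

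The scale mattered for the direction of the calls. With the ratio in place of the regression 31 pairs passed again, but 5 above and 26 below, and 21 of the original 31 pairs kept their side and 15 were called again. The 6 that kept their side without passing were *Adamts5*, *Ddr2*, *Fgf18* and *Igf1* in LGXSM-33, *Polq* in LGXSM-5 and *Stat3* in LGXSM-6. With no normalization 94 passed, all above the parents, and 1 of the 13 pairs called below was still below. Without normalization 213 of the 268 means lay above both parents and 3 below, a shift common to the mRNAs, so a side kept or lost on that scale says little about a single pair. Without the low run of SM/J, 37 pairs passed over assay replicates and 0 over runs.

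**Figure D3:**
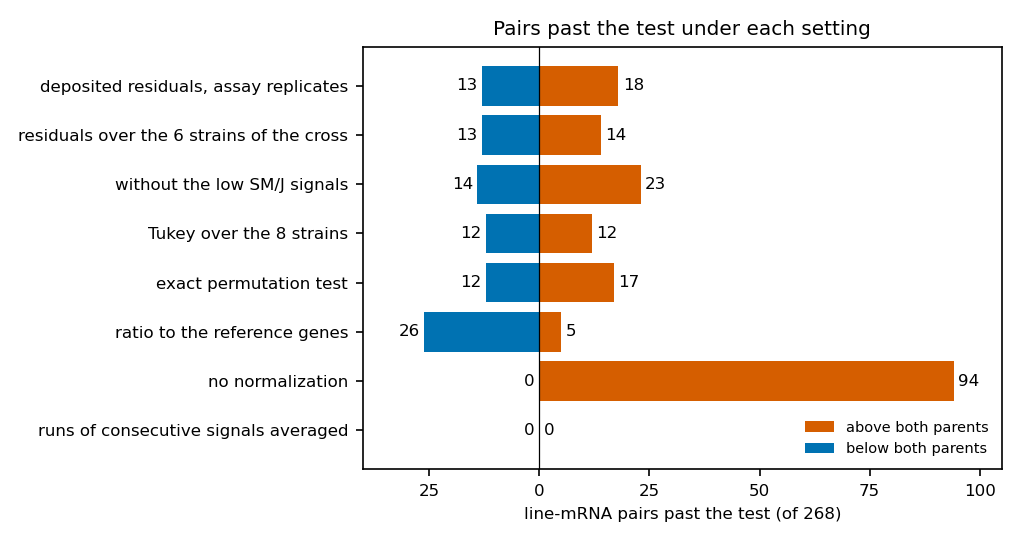
Line-mRNA pairs past the test (x axis, of 268) under 8 settings, with pairs above both parents to the right of 0 and pairs below both to the left. The count over assay replicates is 18 above and 13 below, the split moves to 5 and 26 with the ratio and to 94 and 0 with no normalization, and averaging the runs leaves 0.

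The calls below the parents in LGXSM-5 and LGXSM-35 included *Bglap1*, *Mia1*, *Ihh* and *Mmp9* in both lines. *Bglap1*, which encodes osteocalcin of osteoblasts, had run means of -0.239, -0.272 and -0.306 in LGXSM-35, against 0.0413, 0.0848 and 0.165 in LG/J and -0.0456, -0.0142 and 0.343 in SM/J. All 9 assay replicates of LGXSM-35 were below every replicate of the parents, whose means lay within 0.00279 log10 units of each other. The line was 2.33-fold below the nearer parent (-0.367 ± 0.0481 SE log10 units against SM/J, adjusted *P* = 1.54e-08, and 0.0621 over runs), the smallest adjusted *P* over runs of any pair. In LGXSM-5 the run means of *Bglap1* were -0.291, -0.105 and -0.0594, again under all run means of the parents, 1.76-fold below the nearer one (-0.246 ± 0.0481 SE log10 units against SM/J, adjusted *P* = 2.06e-04, and 0.517 over runs). Both lines stayed below in the ratio, and without normalization both lay between the parents. In a homogenate of several joint tissues cut out together, fewer cells of a type and less RNA per cell cannot be told apart.

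*Ihh*, the signal of prehypertrophic chondrocytes that paces the growth plate, had run means of -0.14, -0.129 and -0.172 in LGXSM-35 and -0.085, -0.228 and -0.193 in LGXSM-5. The parents were at -0.0247, 0.171 and 0.284 in LG/J and -0.0197, -0.090 and 0.12 in SM/J. Both lines lay under most of the parental run means, with LGXSM-35 clear of all of them and LGXSM-5 overlapping SM/J. The fold below the nearer parent was 1.49 in LGXSM-5 (-0.172 ± 0.0423 SE log10 units against SM/J, adjusted *P* = 0.00218, and 0.519 over runs). It was 1.41 in LGXSM-35 (-0.15 ± 0.0423 SE log10 units against SM/J, adjusted *P* = 0.0098, and 0.632 over runs). The signals of *Ihh* were low, with medians of 8 and 11 units in LGXSM-5 and LGXSM-35 and 17 and 8 in LG/J and SM/J.

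*Mia1*, a protein secreted by chondrocytes, was 1.72-fold below the nearer parent in LGXSM-5 (-0.236 ± 0.0474 SE log10 units against SM/J, adjusted *P* = 3.07e-04, and 0.519 over runs). LGXSM-35 lay 1.56-fold below (-0.193 ± 0.0474 SE log10 units against SM/J, adjusted *P* = 0.00222, and 0.708 over runs). The lowest, median and highest replicates were -0.273, -0.165 and -0.00372 in LGXSM-5 and -0.201, -0.104 and -0.0272 in LGXSM-35, so both overlapped SM/J, whose lowest was -0.107. *Col10a1*, the collagen of hypertrophic chondrocytes, lay below the parents in all 4 lines but passed only in LGXSM-5. Its run means there were -0.423, 0.0235 and -0.614, against 0.304, -0.16 and 0.478 in LG/J and -0.053, -0.179 and 0.46 in SM/J, so that 1 run of the line lay within both parents. This was the largest distance of any call, 2.69-fold (-0.43 ± 0.122 SE log10 units against SM/J, adjusted *P* = 0.0098, and 0.718 over runs), in an mRNA whose replicates had SDs of 0.287, 0.305 and 0.313 log10 units in LGXSM-5, LG/J and SM/J.

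*Mmp9*, a gelatinase of osteoclasts and other myeloid cells, was called below the parents in LGXSM-5 and LGXSM-35. The run means were -0.293, -0.161 and -0.209 in LGXSM-5 and -0.225, -0.143 and -0.23 in LGXSM-35. LG/J stood higher, at 0.0651, 0.16 and 0.0934, and SM/J spread over 0.0408, -0.232 and -0.0444, its lowest value being that of the low run. Both lines overlapped SM/J. LGXSM-5 lay 1.39-fold below SM/J (-0.142 ± 0.0343 SE log10 units against SM/J, adjusted *P* = 0.00187, and 0.519 over runs) and LGXSM-35 1.32-fold (-0.121 ± 0.0343 SE log10 units against SM/J, adjusted *P* = 0.0098, and 0.708 over runs). In the ratio both lines lay between the parents.

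**Figure D4:**
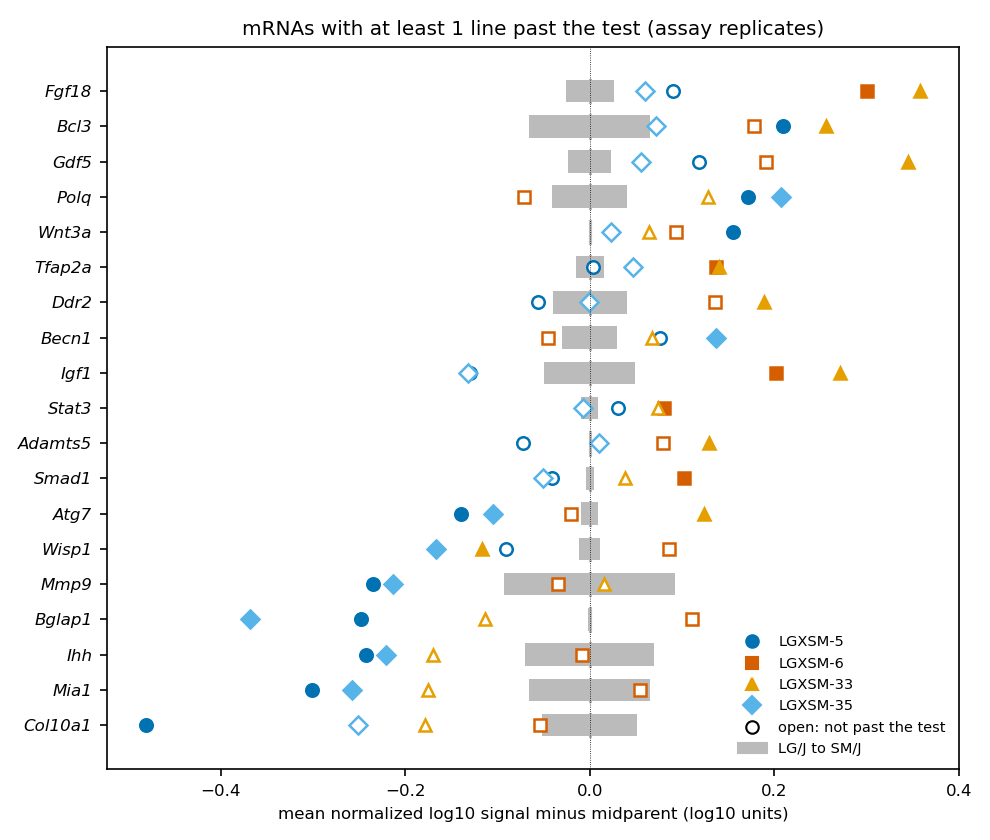
Mean normalized log10 signal of each line minus the midparent (x axis, log10 units) for the 19 mRNAs with at least 1 call over assay replicates. Grey bars span the LG/J and SM/J means, filled symbols are calls and open symbols are not; LGXSM-5 and LGXSM-35 fall to the left for *Bglap1*, *Ihh*, *Mia1*, *Mmp9* and *Atg7*, and LGXSM-6 and LGXSM-33 to the right for *Fgf18* and *Igf1*.

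Marker lists of cartilage and bone cells took one side in LGXSM-5 and LGXSM-35 and were mixed in the other lines. All 5 chondrocyte markers (*Col2a1*, *Acan*, *Comp*, *Sox9*, *Mia1*), all 3 hypertrophic markers (*Col10a1*, *Ihh*, *Mmp13*) and all 3 osteoblast markers (*Bglap1*, *Runx2*, *Col1a1*) had means below both parents in LGXSM-5 and in LGXSM-35, of which 1, 2 and 1 were calls in LGXSM-5 and 1, 1 and 1 in LGXSM-35. Over all mRNAs 41.8% and 35.8% of means lay below both parents in these lines and 13.4% and 11.9% were calls. In LGXSM-6 no chondrocyte or osteoblast marker was below both parents, and 4 of 5 and 2 of 3 were above, with no call, while of the 3 hypertrophic markers 1 was above, 1 below and 1 between. Over all mRNAs of LGXSM-6, 55.2% of means lay above, 13.4% below and 7.46% were calls. In LGXSM-33, 2 chondrocyte markers were above, 1 below and 2 between, 2 hypertrophic markers were below and 1 between, and 1 osteoblast marker was above and 2 below. The summed signal of the 5 chondrocyte markers ran from 3028 to 6204 in LGXSM-5 and 2751 to 7490 in LGXSM-35, against 3396 to 16676 in LG/J, 1504 to 11246 in SM/J and 9381 to 19042 in LGXSM-6. The medians of these sums, which are not normalized, were 5052 in LGXSM-5 and 5104 in LGXSM-35, between those of SM/J (1951) and LG/J (6078). The sums are mostly *Col2a1* and *Comp*, with median signals of 3818.5 and 2165.5 units over the strains of the cross, against 33.25 for *Mia1*. The part of tissue composition in these results was not tested. These sides are on the scale of the residuals, and they shift with the scale for the mRNAs as a whole: the ratio placed 159 of the 268 line means below both parents and no normalization placed 213 above. The myeloid or osteoclast markers did not move together: *Mmp9* was below both parents in LGXSM-5 and LGXSM-35, while *Ccl3*, a chemokine gene named after its values were seen, was between them in LGXSM-5 and above them in LGXSM-35 with no call (adjusted *P* = 0.0967). The 3 adipocyte markers (*Adipoq*, *Lep*, *Retn*) were all above both parents in LGXSM-5 and LGXSM-33, where 31.3% and 55.2% of all means lay above, with no call. In LGXSM-6, 1 was above and 2 between, and in LGXSM-35, 1 was above, 1 below and 1 between. *Lep* and *Retn* were read at low signal, with strain medians of at most 13.5 and 9 units.

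*Fgf18* and *Igf1* were called above the parents in both LGXSM-6 and LGXSM-33. *Fgf18*, a growth factor for chondrocytes, had run means of 0.261, 0.258, 0.247 and 0.106 in LGXSM-33 and 0.196, 0.351, 0.0472 and 0.0502 in LGXSM-6. The parents were at -0.108, -0.227 and -0.144 in LG/J and -0.495, -0.0187 and 0.0442 in SM/J. Every run of both lines was above every run of the parents, in LGXSM-6 by a narrow margin over the highest run of SM/J. LGXSM-33 was 2.15-fold above the nearer parent (0.332 ± 0.0614 SE log10 units against SM/J, adjusted *P* = 1.05e-04, and 0.397 over runs). In LGXSM-6 the distance was 1.88-fold (0.275 ± 0.0614 SE log10 units against SM/J, adjusted *P* = 0.00106, and 0.517 over runs), but in the ratio that line lay between the parents, and LGXSM-33 stayed above without passing (0.147 log10 units, adjusted *P* = 0.316).

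*Igf1*, insulin-like growth factor 1, had run means of 0.236, 0.0985, 0.252 and 0.246 in LGXSM-33 and 0.14, 0.0549, 0.0832 and 0.278 in LGXSM-6. The parents were at 0.0474, -0.21 and -0.121 in LG/J and -0.187, 0.116 and -0.0272 in SM/J, and 1 SM/J run overlapped each line. The distance above the nearer parent was 1.67-fold in LGXSM-33 (0.222 ± 0.0524 SE log10 units against SM/J, adjusted *P* = 0.00167, and 0.519 over runs). In LGXSM-6 it was 1.42-fold (0.153 ± 0.0524 SE log10 units against SM/J, adjusted *P* = 0.043, and 0.746 over runs), a call that was lost in 8 of the 12 fits that left out a signal number and with residuals over the 6 strains of the cross (adjusted *P* = 0.107) and, in the ratio, gave way to a place between the parents. LGXSM-33 stayed above in the ratio but did not pass (0.0792 log10 units, adjusted *P* = 0.554). The opposite side was taken by LGXSM-5, at -0.242, -0.151 and -0.184, and LGXSM-35, at -0.0547, -0.159 and -0.371, both below the parental means but not calls (adjusted *P* = 0.527 and 0.504).

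*Gdf5*, a ligand of the BMP family that marks developing joints, was called above the parents in LGXSM-33, 2.1-fold (0.321 ± 0.0671 SE log10 units against LG/J, adjusted *P* = 4.70e-04, and 0.517 over runs). Its run means there were 0.0674, 0.0101, 0.642 and 0.0857, so 1 run held most of the distance, and the parents were at -0.148, -0.213 and -0.0089 in LG/J and -0.355, -0.0355 and -0.173 in SM/J. In the ratio *Gdf5* lay between the parents in LGXSM-33. The signal was low, with medians of 14 units in LGXSM-33 and 5.5 and 6.25 in LG/J and SM/J. *Smad1*, which carries BMP signals to the nucleus, was called above in LGXSM-6 (1.25-fold, adjusted *P* = 0.0232). *Ddr2*, a collagen receptor, and *Adamts5*, an aggrecan-cleaving protease, were called above in LGXSM-33 (1.41-fold, adjusted *P* = 0.0159, and 1.35-fold, adjusted *P* = 0.0098). In the ratio *Smad1* lay between the parents in LGXSM-6, and with residuals over the 6 strains of the cross it did not pass (adjusted *P* = 0.0671). Over runs the adjusted *P* values of *Smad1*, *Ddr2* and *Adamts5* were 0.708, 0.77 and 0.708.

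Of the 2 autophagy genes with calls, *Atg7*, an enzyme of autophagosome formation, was the only mRNA of the 67 called above the parents in one line and below them in others. Its parents were close together, at -0.0667, -0.0215 and -0.0646 in LG/J and -0.0079, -0.0281 and -0.0623 in SM/J. LGXSM-5 was below all of them at -0.197, -0.20 and -0.148, 1.35-fold under the nearer parent (-0.131 ± 0.029 SE log10 units against LG/J, adjusted *P* = 0.00105, and 0.519 over runs). LGXSM-35 was below them as well at -0.122, -0.154 and -0.163, 1.25-fold (-0.0955 ± 0.029 SE log10 units against LG/J, adjusted *P* = 0.0183, and 0.718 over runs).

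LGXSM-33 took the other side for *Atg7*, with run means of 0.052, -0.00581, 0.0453 and 0.237, 1.3-fold above the nearer parent (0.115 ± 0.0271 SE log10 units against SM/J, adjusted *P* = 0.00167, and 0.519 over runs). Its highest run lay far above the other 3 and its lowest just cleared SM/J. In that highest run, signals 10 to 12, *Hprt1* stood at 240 to 258 units, against 43 to 101.5 in the other second-panel signals of the line. In the ratio LGXSM-33 lay between the parents, and the exact permutation test did not call it. With residuals from a regression on the 6 strains of the cross alone, the adjusted *P* of LGXSM-33 was 0.422 and that of LGXSM-35 0.113. *Becn1*, which encodes the autophagy initiator Beclin 1, had run means of 0.155, 0.0754 and 0.0572 in LGXSM-35, all above the parents at 0.00124, -0.00674 and -0.029 in LG/J and -0.077, -0.075 and -0.0624 in SM/J. The line was 1.28-fold above the nearer parent (0.107 ± 0.029 SE log10 units against LG/J, adjusted *P* = 0.00693, and 0.708 over runs), and all 9 of its replicates cleared every parental one.

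*Polq*, a DNA polymerase of end joining repair, was called above the parents in LGXSM-35 and LGXSM-5. Run means were 0.227, 0.097 and 0.132 in LGXSM-35 and 0.0781, 0.122 and 0.148 in LGXSM-5, against -0.0324, 0.0186 and -0.0306 in LG/J and -0.186, 0.060 and -0.161 in SM/J. Both lines cleared all parental runs, the highest of which was the low-signal run of SM/J. LGXSM-35 was 1.47-fold above the nearer parent (0.167 ± 0.0404 SE log10 units against LG/J, adjusted *P* = 0.00187, and 0.519 over runs) and LGXSM-5 1.35-fold (0.131 ± 0.0404 SE log10 units against LG/J, adjusted *P* = 0.0206, and 0.718 over runs). LGXSM-6 lay below both parents at -0.10, -0.257, -0.0614 and -0.0875, which was not a call (adjusted *P* = 0.919).

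**Figure D5:**
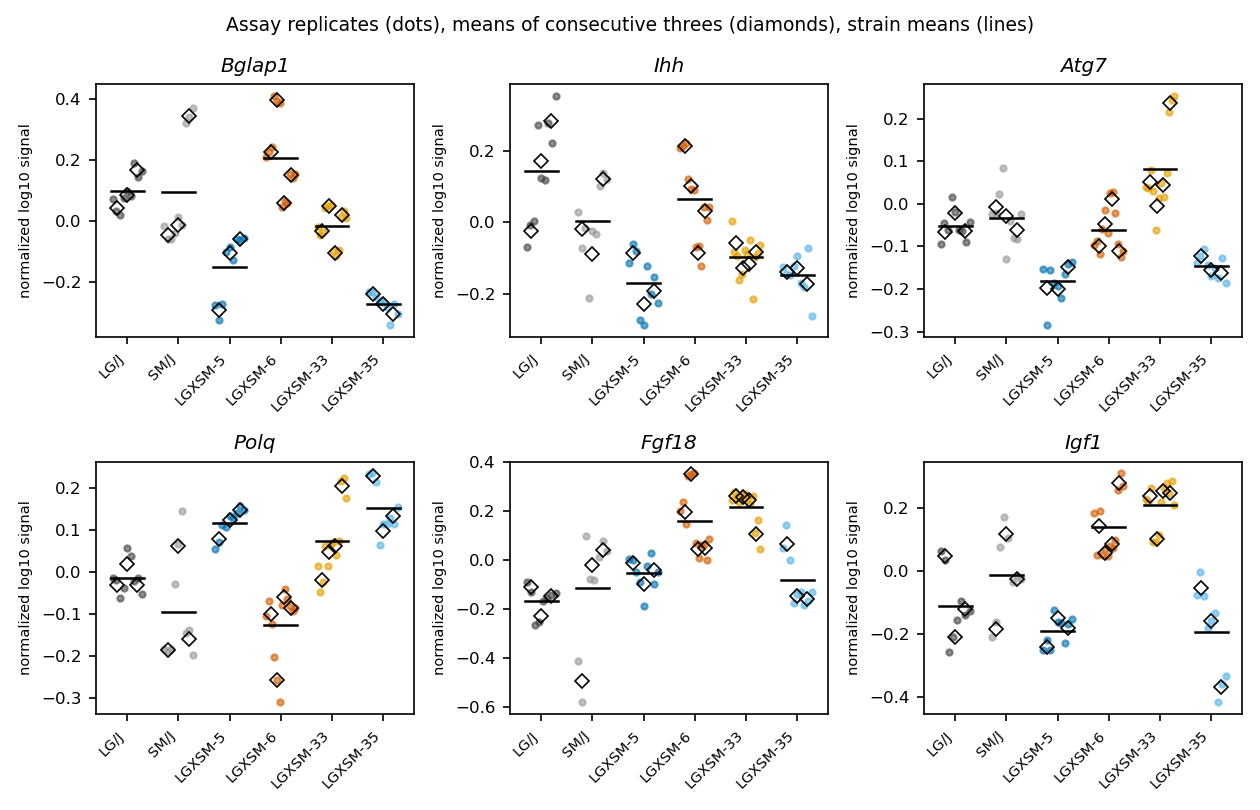
Normalized log10 signal (y axes) of 6 mRNAs in the 2 parents and the 4 lines, with assay replicates as dots in signal order, run means as open diamonds and strain means as black lines. Dots cluster around their run means; the *Bglap1* runs of LGXSM-35, at -0.239 to -0.306, are below all parental runs, and the *Atg7* runs of LGXSM-5 and LGXSM-33 lie on opposite sides of the parents.

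*Bcl3*, a regulator of NF-kappaB target genes, lay above both parents in all 4 lines and was called in 2 of them. LGXSM-33 had run means of 0.176, 0.148, 0.159 and -0.0434 and LGXSM-5 of 0.242, -0.074 and 0.0241. The parents were at -0.159, -0.288 and -0.17 in LG/J and -0.0854, -0.00638 and -0.152 in SM/J, so the lowest run of each line lay within the range of SM/J. LGXSM-33 was 1.55-fold above the nearer parent (0.19 ± 0.045 SE log10 units against SM/J, adjusted *P* = 0.00167, and 0.519 over runs) and LGXSM-5 1.39-fold (0.145 ± 0.0479 SE log10 units against SM/J, adjusted *P* = 0.0363, and 0.802 over runs), the latter not called by Tukey's or the exact permutation test. *Stat3*, a transcription factor of cytokine signalling, was called above in LGXSM-6 with the smallest distance of any call (1.18-fold, adjusted *P* = 0.043, and 0.77 over runs). *Tfap2a*, another transcription factor, was called above in LGXSM-6 (1.32-fold, adjusted *P* = 0.0458) and LGXSM-33 (1.33-fold, adjusted *P* = 0.0407), with adjusted *P* = 0.718 for both over runs. With residuals over the 6 strains of the cross neither *Stat3* nor *Tfap2a* passed in LGXSM-6 (adjusted *P* = 0.0528 and 0.115). In the ratio *Tfap2a* lay below both parents in LGXSM-6 and between them in LGXSM-33. Of the 12 fits that left out a signal number, 3 kept the *Tfap2a* call in LGXSM-6 and 7 the *Bcl3* call in LGXSM-5.

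The 7 Wnt pathway genes had 3 calls in 28 placements, against 11.6% over all pairs, and 2 of the 3 were of *Wisp1*. *Wisp1*, a secreted target of Wnt signalling, was 1.43-fold below the nearer parent in LGXSM-35 (-0.155 ± 0.0362 SE log10 units against LG/J, adjusted *P* = 0.00167, and 0.519 over runs), where its run means of -0.12, -0.0951 and -0.154 were under all those of the parents, -0.0446, 0.0228 and 0.117 in LG/J and -0.0333, 0.0429 and 0.156 in SM/J. In LGXSM-33 it was 1.27-fold below (-0.105 ± 0.0339 SE log10 units against LG/J, adjusted *P* = 0.0279, and 0.723 over runs), with runs that overlapped both parents, and with residuals over the 6 strains of the cross it did not pass (adjusted *P* = 0.237). *Wnt3a*, a canonical Wnt ligand, was 1.43-fold above the nearer parent in LGXSM-5 (0.155 ± 0.0522 SE log10 units against SM/J, adjusted *P* = 0.0405, and 0.708 over runs). Its run means there spread over 0.297, 0.0865 and -0.078 at a median signal of 11 units. Of the 12 fits that left out a signal number, 5 kept this call. The *Wnt3a* call was absent under Tukey's test, under the exact permutation test, without the low run of SM/J and with residuals over the 6 strains of the cross, and in the ratio the line lay between the parents.

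Grouped by gene list, the placements of the 9 matrix genes of cartilage and bone, of which 6 of 36 were calls over assay replicates and 0 over runs, were 0 above and 8 below in LGXSM-5 (median departure -0.201), 1 above and 7 below in LGXSM-35 (median departure -0.14), 4 above and 3 below in LGXSM-33 (median departure 0.0509) and 7 above and 1 below in LGXSM-6 (median departure 0.111), in log10 units from the midparent. Over all 67 mRNAs the median departures were -0.00939, -0.00382, 0.047 and 0.0483 in the same order. For comparison, over all mRNAs 55.2% of means lay above the parents in LGXSM-6 and in LGXSM-33, 41.8% lay below in LGXSM-5 and 35.8% in LGXSM-35, and over the 4 lines 42.5% lay above, 26.9% below and 11.6% were calls. The 8 genes of the TGF-beta and BMP pathway were all above the parents in LGXSM-6 and 6 of 8 in LGXSM-33, with 1 call in each line, where 7.46% and 13.4% of all mRNAs were calls. Nothing is read from the counts of calls in lists of this size. Among the 9 cytokine and inflammatory transcription factor genes, the 36 placements were 18 above and 2 below, with 3 and 0 calls, and a median departure from the midparent of 0.0588 log10 units. The 5 adipokine genes had 13 of 20 placements above the parents and 1 below, with 0 calls. The 4 genes of cell cycle arrest and cell death stayed between the parents in 11 of 16 placements, with 5 above, 0 below and 0 calls.

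The remaining lists were mixed over the 4 lines. Over all 268 pairs 42.5% of means lay above both parents, 26.9% below and 11.6% were calls, with a median departure of 0.017 log10 units. By line, 55.2% lay above in LGXSM-6 and in LGXSM-33, 13.4% below in LGXSM-6 and 35.8% below in LGXSM-35. No count of calls in lists of this size is read as a result. The 6 matrix proteases lay below both parents for 5 mRNAs in LGXSM-35 and above them for 4 in LGXSM-6, with median departures of -0.129 and 0.075 log10 units. Over the 4 lines they had 1 call above and 2 below. *Mmp13*, the collagenase of hypertrophic chondrocytes, had run means of -0.177, -0.163 and -0.147 in LGXSM-35, under those of 0.0851, 0.129 and 0.27 in LG/J and -0.0949, 0.0418 and -0.0495 in SM/J, and still did not pass (adjusted *P* = 0.0995). The 5 skeletal and hypoxia transcription factors lay above for 4 mRNAs in each of LGXSM-6 and LGXSM-33, with 1 call each, *Tfap2a*. The 7 Wnt pathway genes were 6 above and 9 below, with 1 and 2 calls, and a median departure from the midparent of 0.00218 log10 units, over 28 placements. The 4 autophagy genes were 6 above and 5 below, with 2 and 2 calls, and a median departure from the midparent of -0.0112 log10 units, over 16. In LGXSM-33, 3 of these 4 lay above the parents, and in LGXSM-6 3 lay below. The 5 genes of DNA repair and replication were 6 above and 5 below, with 2 and 0 calls, and a median departure from the midparent of -0.00864 log10 units, over 20. The 5 growth plate and growth factor ligands were 10 above and 7 below, with 4 and 2 calls, and a median departure from the midparent of 0.0372 log10 units, over 20.

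Since all calls rest on the same few runs of the parents, the means of the lines were also compared with each other. The parents still entered the regression behind the residuals and the pooled variance of the fit. Over assay replicates 138 of 402 line-against-line comparisons passed (34.3%). LGXSM-5 and LGXSM-35 differed in 8 mRNAs and LGXSM-6 and LGXSM-33 in 15, and the other 4 pairs of lines in 26 to 33. Over run means 21 comparisons in 10 mRNAs passed, 15 of them involving LGXSM-6. Between LGXSM-5 and LGXSM-35 limma gave 0 over runs, also at an unadjusted *P* under 0.05. In the ratio 19 of the 21 kept their sign, 11 of these at an unadjusted *P* under 0.05.

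*Bglap1* differed most between LGXSM-6 and LGXSM-35, 3.02-fold (0.479 ± 0.045 SE log10 units, adjusted *P* = 3.83e-14 over assay replicates and 0.0011 over runs), and no run of the 2 lines overlapped. *Atg7* was lower in LGXSM-5 than in LGXSM-33 by 1.84-fold (-0.264 ± 0.0271 SE log10 units, adjusted *P* = 1.08e-12 over assay replicates and 0.00155 over runs), and higher in LGXSM-33 than in LGXSM-35 by 1.69-fold (0.229 ± 0.0271 SE log10 units, adjusted *P* = 2.17e-10 over assay replicates and 0.00719 over runs). No run of LGXSM-33 overlapped a run of LGXSM-5 or LGXSM-35, although its highest run lay far from its others. These lines were named for *Atg7* as called on opposite sides of the parents, so their difference is no separate support. In the ratio neither *Atg7* comparison passed over runs (adjusted *P* = 0.375 and 0.454), and LGXSM-33 lay between the parents. For *Igf1*, LGXSM-33 exceeded LGXSM-35 by 2.53-fold (0.403 ± 0.0506 SE log10 units, adjusted *P* = 1.29e-09 over assay replicates and 0.0154 over runs). *Polq* was lower in LGXSM-6 than in LGXSM-35 by 1.9-fold (-0.279 ± 0.0377 SE log10 units, adjusted *P* = 6.62e-09 over assay replicates and 0.0148 over runs). *Mia1* was lower in LGXSM-5 than in LGXSM-6 by 2.27-fold (-0.356 ± 0.0431 SE log10 units, adjusted *P* = 5.48e-10 over assay replicates and 0.0148 over runs), and *Wisp1* higher in LGXSM-6 than in LGXSM-35 by 1.79-fold (0.252 ± 0.0339 SE log10 units, adjusted *P* = 5.42e-09 over assay replicates and 0.0129 over runs). In the ratio over runs 4 comparisons passed, *Bglap1* between LGXSM-6 and LGXSM-35, *Igf1* between LGXSM-33 and LGXSM-35, and *Map1lc3a* and *Pcna* between LGXSM-6 and LGXSM-33, the last 2 genes being named after their values were seen.

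The parents themselves differed in 16 of the 67 mRNAs over assay replicates (23.9%), with LG/J higher in 11, and in 0 over run means, where limma gave 9 at an unadjusted *P* under 0.05. Of the 64 placements in these mRNAs 8 were calls, and of the 204 in the other mRNAs 23 were. All 4 lines lay between the parents for 5 mRNAs, among them *Wnt16*, a Wnt ligand, and *Il6*, a cytokine, whose parents were 1.48-fold and 1.33-fold apart with LG/J higher (adjusted *P* = 0.0441 and 0.047). Also between the parents in all 4 lines were *Axin2*, a Wnt feedback inhibitor, and *Fancc*, a gene of DNA crosslink repair, with parents 1.23-fold and 1.07-fold apart (adjusted *P* = 0.0508 and 0.342).

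The mean of the 4 lines departed from the midparent in 23 mRNAs (34.3%), 14 higher and 9 lower, and over run means in 1, *Ihh*. The direction turned with the scale: in the ratio 4 of 45 such mRNAs were higher, and with no normalization 61 of 61. In the ratio over runs limma gave 0, with 12 at an unadjusted *P* under 0.05, so that *Ihh* did not pass there. The departure of *Ihh* was -0.16 ± 0.0254 SE log10 units, adjusted *P* = 1.10e-06, and 0.0367 over runs, with 3 lines below both parents and LGXSM-6 between them. Higher means were led by *Fgf18* (0.202 ± 0.0396 SE log10 units, adjusted *P* = 2.89e-05, and 0.0657 over runs) and *Bcl3* (0.179 ± 0.029 SE log10 units, adjusted *P* = 1.28e-06, and 0.0647 over runs). All 4 lines lay above both parents for 6 mRNAs, *Fgf18*, *Bcl3*, *Gdf5*, *Wnt3a*, the cytokine gene *Il4* and the adipokine gene *Retn*, and below both for *Col10a1* and *Lef1*, a transcription factor of the Wnt pathway. These counts, and that of the mRNAs with all 4 lines between the parents, are descriptions and were not tested. For no mRNA were all 4 lines, or 3 lines on 1 side, calls. *Il4* had 0 calls although its 4 line means lay within 0.0663 log10 units of each other, 1.29-fold above the midparent (0.112 ± 0.0271 SE log10 units, adjusted *P* = 7.11e-04, and 0.0647 over runs).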

How the data were processed

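QuantiGene Plex signals were measured in 8 strains, each 1 sample in the labels, from 3 to 4 mice by the study's methods. The authors deposited log10 signals and their normalized values, residuals in log10 units of each target on the panel's reference genes (*Gapdh*, *Hprt1* and *Actb* in the first panel, *Gapdh* and *Hprt1* in the second). A subtraction of background is named in the methods, and whether the files are from before or after it is not stated. Folds here are 10 raised to a difference of residuals. The deposited strain averages and fold changes were not used, and 0 columns were unmatched. No file gives the number of beads behind a value, so precision rests on the replicates. Nothing in the labels ties an assay replicate to a mouse.

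limma 3.58.1 (R 4.3.3) was fitted per panel over all 8 strains with 1 mean per strain, and *P* values were adjusted by Benjamini-Hochberg with a threshold of 0.05: over 268 pairs for the lines, 67 mRNAs for the parents and the midparent and 402 for line against line. The larger *P* of both parents was used, and 1 for a line between them. For runs, consecutive signals were averaged before the same fit. Alternatives were the split of runs, the exact permutation test, Tukey's test over the 8 strains, the 6 strains in the fit, 4 other normalizations, medians in the placements, a filter on low signal that kept 50 of the 67 mRNAs, adjustment within a line and leaving out each signal number. The split of 8 signals into 2, 3 and 3, and the fits without the low SM/J run, were chosen after the data were seen. The lines, tests and gene lists were chosen with earlier results of these data known. Named were up to 3 calls per line and direction by distance, mRNAs called on opposite sides, up to 5 with parents that differed and all lines between, and up to 2 further members of a list. Computation of the rest used Python 3.11.15, numpy 2.4.6, pandas 2.3.3, scipy 1.17.1 and matplotlib 3.10.9. One mRNA is not reported here.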

Additional observations from a re-analysis of the deposited data

Results flagged for a closer look

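*Atg7* was singled out because lines took opposite sides of the parents and differed in a test against each other. Lines called on opposite sides were bound to lie apart on the same values, so that test is no separate support. LGXSM-5 minus LGXSM-33 was -0.264 log10 units and LGXSM-33 minus LGXSM-35 was 0.229 log10 units, with adjusted *P* = 0.00155 and 0.00719 over runs (limma). In the ratio to the reference genes the signs were kept and the adjusted *P* values over runs were 0.375 and 0.454. For *Becn1*, 1 assay replicate of LG/J lay at -0.0709, far below the other 8 of that strain. It was the only such value among 52 groups of replicates examined. How often chance gives such a value was not tested.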

How the results depend on the processing

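The number of line means outside the parental range was between 140 and 216 under every alternative run, 140 with the filter on low signal, which tests fewer mRNAs. The 31 calls fell to 0 when runs of 3, 3 and 2 signals were averaged, 0 with runs of 2, 3 and 3, 0 when the latter were averaged without the low SM/J run and 0 when they were averaged on the ratio. Over replicates they numbered 37 without the low SM/J signals and 94 with no normalization. Tukey's test gave 24 with no adjustment over pairs, all among the 31, and 6 above and 5 below after Benjamini-Hochberg adjustment. The exact permutation test gave 29, of which 23 were among the 31. In each of these tests (Tukey's without the adjustment) 5 of the named pairs fell short. Residuals over the 6 strains of the cross gave 14 above and 13 below, 23 of them among the 31, and lost *Atg7* in LGXSM-33 and LGXSM-35, *Igf1*, *Smad1*, *Stat3* and *Tfap2a* in LGXSM-6, *Wisp1* in LGXSM-33 and *Wnt3a* in LGXSM-5. Medians over assay replicates placed 191 means outside. With runs averaged in the 4 ways in the same order, the mRNAs away from the midparent (23) numbered 5, 1, 8 and 0, those with parents that differed (16) 0, 0, 1 and 1, and the differences between lines (138) 25, 21, 23 and 4. Over replicates the midparent count was 45 in the ratio, 61 with no normalization and 36 without the low SM/J signals, and the parental count 33 in the ratio and 37 with no normalization. Leaving out each signal number gave 22 to 31 calls, 176 to 189 means outside, 16 to 25 for the midparent, 10 to 18 for the parents, the 10 without Signal 2, and 116 to 136 for the lines.

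Distances beyond the nearer parent turned negative, in log10 units, where the line was no longer past both parents on its side: in the ratio -0.259 (*Wnt3a* in LGXSM-5), -0.294 (*Fgf18* in LGXSM-6), -0.234 (*Igf1* in LGXSM-6), -0.328 (*Tfap2a* in LGXSM-6), -0.00607 (*Gdf5* in LGXSM-33) and -0.0513 (*Atg7* in LGXSM-33), with no normalization -0.0937 (*Bglap1* in LGXSM-5), -0.16 (*Mia1* in LGXSM-5), -0.0597 (*Wisp1* in LGXSM-33), -0.0305 (*Bglap1* in LGXSM-35), -0.28 (*Mia1* in LGXSM-35), -0.106 (*Wisp1* in LGXSM-35), -0.135 (*Atg7* in LGXSM-5) and -0.217 (*Atg7* in LGXSM-35), and in the ratio over runs -0.222 (*Wnt3a* in LGXSM-5), -0.242 (*Fgf18* in LGXSM-6), -0.207 (*Igf1* in LGXSM-6), -0.299 (*Tfap2a* in LGXSM-6) and -0.0513 (*Atg7* in LGXSM-33). All of the 21 named distances were short of the threshold when runs were averaged. Fits without 1 signal number lost *Tfap2a* in LGXSM-6 in 9 of 12, *Igf1* in LGXSM-6 in 8, *Wnt3a* in LGXSM-5 in 7, *Bcl3* in LGXSM-5 in 5, *Wisp1* in LGXSM-33 in 4, *Polq* in LGXSM-5 in 3, *Col10a1* in LGXSM-5 in 2 and *Atg7* in LGXSM-35 in 1. The cause of these changes was not tested. No paired analysis was possible because each strain is 1 sample and the signal numbers are not labelled as pairing strains. Low signals, with medians under 20 units for *Ihh*, *Gdf5*, *Wnt3a*, *Tfap2a*, *Lep* and *Retn* in all 6 strains, limit those mRNAs. With 3 runs against 3 no exact permutation test can go below 0.1.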
